A study of Mus musculus with 4 samples.

Results

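The genes described here are the 5 that encode the megalin and cubilin endocytosis machinery of the kidney: Lrp2 (megalin), Cubn (cubilin), Amn (amnionless), Dab2 (the clathrin adaptor disabled-2) and Lrpap1 (the receptor-associated protein RAP). They were chosen by symbol, and all 5 were found among the 32285 genes counted. Their unique molecular identifiers (UMIs, one per captured transcript) were read in every cell class of 4 whole-kidney single-cell libraries. The 2 mutant mice carried a point mutation of TrnE, which encodes the glutamate transfer RNA of mitochondria, at loads of 79% in mutant 1 and 76% in mutant 2 by their labels; the name under which mutant 1 was deposited carries another number. They were set against 2 wild-type C57BL/6J samples. In all 4 the kidney had been digested to single cells, sorted for viability and run on a droplet 3′ kit; age was not given in the sources used here.

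Megalin and cubilin are large receptors of the proximal tubule brush border that bind filtered albumin, vitamin carriers, hormones and enzymes. Cubilin has no membrane span of its own and is held at the surface by amnionless, and RAP is a chaperone that keeps megalin from binding ligands while it is being made in the endoplasmic reticulum. Dab2 is a cytosolic adaptor that joins the megalin tail to the clathrin coat, after which the cargo goes to lysosomes and the receptors return to the surface. Loss of megalin, cubilin or amnionless function is known to cause protein loss in urine.

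After filtering, 30428 of 37041 barcodes were kept as cells, 9535 and 8916 from mutants against 5671 and 6306 from wild types. Proximal tubule cells numbered 2661 and 1248 for the mutants, against 1691 and 3771 for the wild types. The 19 markers of the proximal tubule, none of them one of the 5 genes, summed to 31569 CPM there. CPM is the usual scaled count, a gene's share of all UMIs of a class in a library. In the 11 other classes with enough cells to be shown these markers summed to between 599 and 1702 CPM. The same markers named the clusters, so the sums describe the class and do not test its label. The class called principal cells was 1 cluster of mixed markers. Its principal cell markers summed to 2475 CPM, against 358 CPM in the distal convoluted and connecting tubule. Markers of that tubule summed to 17055 CPM in it, against 29821 CPM in the tubule itself. Thin limb markers summed to 2360 CPM in it, podocyte markers to 1627 CPM and fibroblast and mural cell markers to 1292 CPM. These 3 sums were each the highest of the classes shown. Wild type 2 stood apart from the other 3 libraries, with 59.8% of its cells in the proximal tubule and 57 macrophages, so the main values are also given without it. Groups follow the labels. The name under which wild type 1 was deposited looks like that of mutant 2, and no transcript counted here reports the genotype, so the same values are given without wild type 1. Any pair of libraries shared between 14 and 26 barcodes. Nothing in the labels says that the 2 wild-type samples came from separate animals; p-values measure only the spread between these libraries.

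Both receptor genes lie on the minus strand of chromosome 2 (GRCm38, GENCODE M21). Lrp2 is at chr2:69424340-69586065 and spans 162 kb, and Cubn is at chr2:13276338-13491813 and spans 215 kb. Amn (chr12:111271095-111276426, plus strand) spans 5.33 kb, Dab2 (chr15:6299788-6440712, plus strand) 141 kb and Lrpap1 (chr5:35091501-35105766, minus strand) 14.3 kb. No gene overlapped any of them on the same strand. On the other strand 1 gene overlapped Cubn and 2 overlapped Dab2, and whether the counting used strand is not stated. The 250 bases before 4 RefSeq starts are printed for the receptors, the anchor and the adaptor, on whose levels in the proximal tubule the results turn. Capitals mark the CCAAT box (CCAAT, printed as ATTGG where it lies on the other strand) and the HNF1 half-site (GTTAAT). Both were searched on both strands, as were TATAAA (the TATA box) and CAAAGTCCA (the HNF4 core), and no matches overlapped. The sequences are from RefSeq (GRCm38.p6), 5′ to 3′ on the strand of the gene.
Lrp2, chr2:69586030-69586279, minus strand: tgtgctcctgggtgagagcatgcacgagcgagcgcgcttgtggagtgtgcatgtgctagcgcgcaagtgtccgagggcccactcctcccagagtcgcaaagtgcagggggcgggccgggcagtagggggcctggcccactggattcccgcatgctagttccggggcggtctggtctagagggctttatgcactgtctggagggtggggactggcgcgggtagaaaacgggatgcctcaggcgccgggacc
Cubn, chr2:13491877-13492126, minus strand: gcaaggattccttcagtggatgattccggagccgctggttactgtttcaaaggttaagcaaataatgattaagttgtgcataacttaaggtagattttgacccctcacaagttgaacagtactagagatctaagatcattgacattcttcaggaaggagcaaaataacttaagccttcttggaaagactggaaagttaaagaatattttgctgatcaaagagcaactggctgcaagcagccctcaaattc
Amn, chr12:111270846-111271095, plus strand: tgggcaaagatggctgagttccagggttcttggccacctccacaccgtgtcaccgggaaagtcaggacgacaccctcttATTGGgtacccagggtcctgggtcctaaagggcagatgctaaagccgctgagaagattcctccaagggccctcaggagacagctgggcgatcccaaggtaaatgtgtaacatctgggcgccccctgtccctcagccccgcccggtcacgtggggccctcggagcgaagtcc
Dab2, second of 2 starts, chr15:6386498-6386747, plus strand: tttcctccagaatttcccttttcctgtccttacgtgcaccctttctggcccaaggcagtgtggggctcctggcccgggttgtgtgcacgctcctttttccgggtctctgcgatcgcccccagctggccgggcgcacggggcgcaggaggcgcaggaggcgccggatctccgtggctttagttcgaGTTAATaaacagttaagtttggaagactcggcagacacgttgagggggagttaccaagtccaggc

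The Lrp2 window was 66.4% G and C, that of Cubn 39.6%. The Amn window held 1 CCAAT box, read on the minus strand 171 bases before the start, and 33.8% of 32851 promoter windows of that length hold one. The window of the second Dab2 start held 1 HNF1 half-site on the plus strand, 65 bases before the start, a motif found in 6.43% of windows. The windows of the first Dab2 start and of Lrpap1, not printed, held none of the 4 motifs. TATAAA (12.4% of windows) and CAAAGTCCA (0.384%) were not among the letters of the 4 windows. A match is a description of the letters and no measure of binding.

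In the proximal tubule none of the 5 genes differed between mutant and wild type beyond the spread of the libraries. The receptor genes Lrp2 and Cubn and the adaptor gene Dab2 had lower means in mutants, and Amn and Lrpap1 had higher ones. Wild type 2 was the highest library for Lrp2, Cubn and Dab2. All 5 genes were well measured: in the proximal tubule each ranked between the 96.1 and the 99.7 percentile of the 21706 genes with a UMI there, with 8690 UMIs for Amn and 97442 for Dab2 at the extremes.

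Lrp2, the megalin gene, measured 1008 and 806 CPM in mutant 1 and mutant 2, against 936 and 1946 CPM in wild type 1 and wild type 2. Wild type 1 lay between the mutants, and wild type 2 was the only library far from the rest. The means were 907 ± 143 CPM in mutants and 1441 ± 714 CPM in wild types (SD, n = 2 each). The log2 fold change was -0.41 (SE 0.57, 95% interval -1.62 to 0.80), with an adjusted p of 0.786 by edgeR's quasi-likelihood test across 13306 genes. Cubn, the cubilin gene, measured 238 and 230 CPM in mutants, against 303 and 715 CPM in wild types. Both mutants were under both wild types, and the mutants were close to each other. Its means were 234 ± 5.11 and 509 ± 291 CPM, and its log2 fold change was -0.85 (SE 0.51, 95% interval -1.92 to 0.22, edgeR adjusted p = 0.639). Amn, the membrane anchor of cubilin, measured 147 and 237 CPM in mutants, against 179 and 125 CPM in wild types. The groups overlapped, with mutant 2 highest and wild type 2 lowest, and the log2 fold change was 0.53 (SE 0.49, edgeR adjusted p = 0.718).

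Lrpap1, the chaperone gene, measured 267 and 399 CPM in mutants, against 330 and 270 CPM in wild types. Its libraries lay closer together than those of the receptors, and the mutants held both the lowest and the highest. The log2 fold change was 0.35 (SE 0.51, edgeR adjusted p = 0.794). Dab2, the adaptor gene, measured 1180 and 813 CPM in mutants, against 1331 and 2273 CPM in wild types. Both mutants were under both wild types, mutant 1 only a little under wild type 1. The log2 fold change was -0.63 (SE 0.58, 95% interval -1.85 to 0.60, edgeR adjusted p = 0.719).

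Fold changes were scaled by TMM, which CPM are not; scaled by library totals they were -0.67 for Lrp2, -1.12 for Cubn, 0.34 for Amn, -0.86 for Dab2 and 0.15 for Lrpap1, with the median of all genes at -0.20 in place of 0.02. Of the 5 genes, 0 passed the threshold of 0.05 in edgeR, 0 also at an unadjusted p under 0.05, and 0 passed in DESeq2, where 1 was under an unadjusted p of 0.05. Over all genes 0.827% were called in the proximal tubule, 96 higher and 14 lower in mutants. Both mutants were under both wild types for Cubn and Dab2, as they were for 23.4% of the genes tested, and for 0 members were both mutants higher, against 15.2% of the genes tested. The plot of CPM by library shows the 4 values of each gene.

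**Figure D1:**
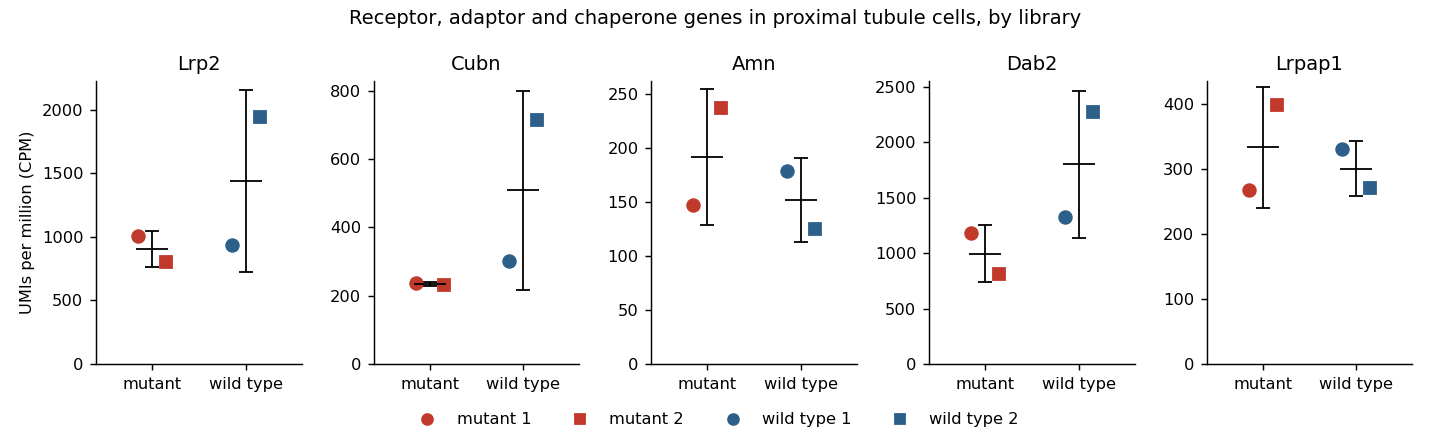
Each panel gives the CPM of one gene in the proximal tubule cells of each library, mutants left of wild types, with bars for the group mean and its SD (n = 2). Wild type 2 is the highest library for Lrp2, Cubn and Dab2, at 1946, 715 and 2273 CPM, and the lowest for Amn at 125 CPM.

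The values depended on which library was left out. Without wild type 1, the log2 fold change of Cubn was -1.18 and passed in edgeR (adjusted p = 0.0305). Dab2 was then at -0.78 (edgeR adjusted p = 0.067), Lrp2 at -0.68 (0.083), Amn at 1.08 (0.098) and Lrpap1 at 0.76 (0.173). In that fit 12.3% of all genes were called, the background against which 1 of 5 members is read. Without wild type 2, Cubn was at -0.37, Dab2 at -0.43, Lrp2 at -0.05, Amn at 0.13 and Lrpap1 at 0.04, and none of the 5 passed. With 1 wild-type library left, its spread is assumed to be that of the mutants.

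**Figure D2:**
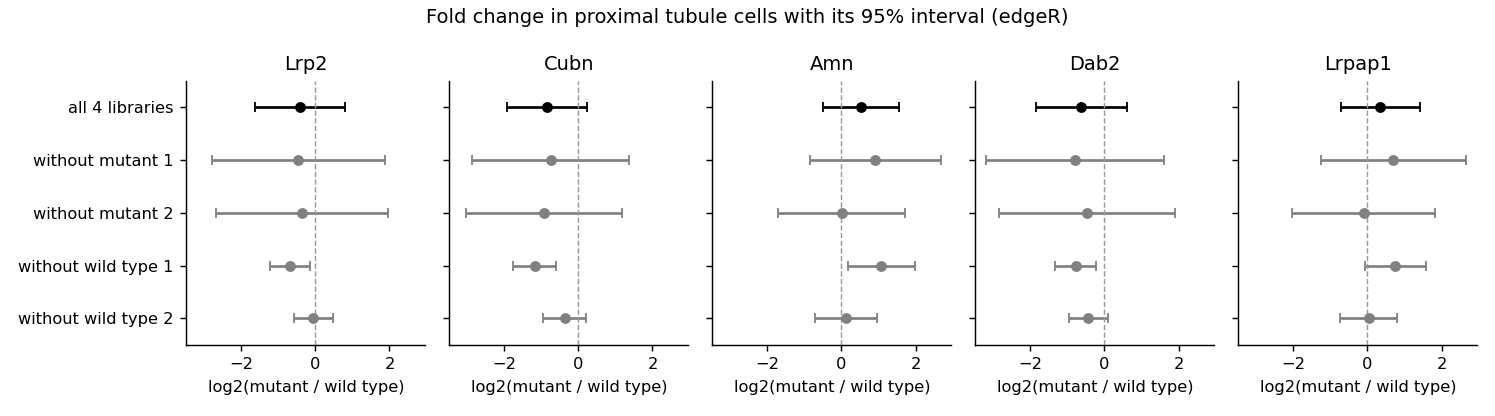
Points are the log2 of mutant over wild type in the proximal tubule with all 4 libraries (black) and with each library left out (grey), and bars are 95% intervals from edgeR. With all 4 libraries every interval spans 0, and without wild type 1 those of Lrp2, Cubn and Dab2 lie below 0 and that of Amn above it; the intervals are not adjusted for the number of genes, and Cubn alone passed after adjustment.

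Other transcripts in the same cells also differed among the libraries. Malat1, a nuclear RNA, took 1.75% and 0.685% of UMIs in mutant proximal tubule cells, against 1.5% and 4.34% in wild-type ones. Its log2 fold change was -1.02 (SE 0.85, edgeR adjusted p = 0.696), and the 4 nuclear RNAs listed summed to 18123 and 7094 CPM in mutants, against 15426 and 44559 CPM in wild types. Wild type 2 was thus highest for nuclear RNA as for Lrp2, Cubn and Dab2. The 11 macrophage markers summed to 1764 and 1530 CPM in mutants and 1023 and 509 CPM in wild types, with 8 of 11 higher in both mutants and none at 0. The 11 T cell markers summed to 98.8 and 269 CPM in mutants and 40.8 and 47.6 CPM in wild types, with 8 of 11 higher in both mutants. The 12 endothelial markers summed to 38.1 and 65.6 CPM in mutants and 37.0 and 13.7 CPM in wild types, with 5 of 12 higher in both mutants. Of all genes tested in the class 15.2% were higher in both mutants. Other marker lists differed: of the 8 B cell markers 0 were higher in both mutants, and of the 8 plasma cell markers 1 was. The 7 podocyte markers summed to 408 and 209 CPM in mutants and 402 and 1022 CPM in wild types, with 3 of 7 higher in both mutants. Mitochondrial transcripts were 8.20% and 17.2% of UMIs in mutants and 13.4% and 11.7% in wild types, so the groups overlapped. The part of these transcripts in the values of the 5 genes was not tested.

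The kit captures transcript ends, but whether intronic reads were counted is not stated and could raise long genes, so ratios between the genes describe UMIs as counted and not transcript numbers. There were 4.24 and 3.50 Lrp2 UMIs for each Cubn UMI in mutant proximal tubule cells, against 3.09 and 2.72 in wild types, so both mutants were higher in the class as a whole. Within the class, by kinds of cluster set by their RNA content, the ratio was 5.67 and 4.09 in mutants against 4.19 and 5.19 in wild types in mitochondria-rich clusters, where the groups overlapped. In the shallow cluster it was 3.76 and 4.33 against 5.12 and 4.45, so both mutants were lower, mutant 2 only a little under wild type 2. These ratios rest on few Cubn UMIs, 33 and 12 in mutants and 8 and 78 in wild types. In nuclear RNA-rich clusters it was 3.92 and 2.80 against 2.69 and 2.26, so both mutants were higher, and in mitochondria-poor clusters it was 5.47 and 3.33 against 3.89 and 4.99, with overlap. Cubn UMIs for each Amn UMI were 1.61 and 0.973 in mutants, against 1.69 and 5.73 in wild types, so both mutants were lower. Cubilin and its anchor were thus counted about equally in mutant 2, and wild type 2 was far from the other 3 libraries. Of the 10 ratios between the 5 genes, that of Amn to Lrpap1 varied least among the libraries, at 0.551 and 0.594 in mutants and 0.543 and 0.462 in wild types. Both mutants were higher for it, mutant 1 only a little above wild type 1. Cubn UMIs for each Lrpap1 UMI were 0.889 and 0.578 in mutants, against 0.919 and 2.64 in wild types, so both mutants were lower. The remaining ratios overlapped in the class as a whole. How often ratios of other gene pairs separate the groups was not counted.

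The share of proximal tubule cells in which a gene was caught was read after each cell had been thinned to 1500 UMIs, which left out 753 and 241 cells of mutants against 172 and 863 of wild types. The median depth before thinning was 2802 and 3472.5 UMIs in mutants and 4332 and 4417 UMIs in wild types. Lrp2 was caught in 45.4% and 54.0% of mutant cells, against 53.6% and 78.0% of wild-type cells. Cubn was caught in 19.3% and 24.1% of mutant cells, against 26.3% and 46.1% of wild-type cells. For Lrp2 wild type 1 lay within the mutants, and for Cubn both mutants were under both wild types. How many of all genes separated the groups by this share was not counted. Dab2 was caught in 62.3% and 47.3% of mutant cells and in 58.3% and 66.1% of wild-type cells, Amn in 15.5% and 31.9% against 22.4% and 19.4%, and Lrpap1 in 24.2% and 43.3% against 35.4% and 32.2%. These 3 genes overlapped between the groups.

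The difference in that share, mutant minus wild type, was -16.1 percentage points for Lrp2, -14.5 for Cubn, -7.41 for Dab2, 2.80 for Amn and -0.09 for Lrpap1. The two-sided exact permutation test gave p = 0.667, 0.333, 0.667, 1.00 and 1.00 in that order, where 2 against 2 libraries allow no p under 0.333. Before thinning the differences were -15.6, -16.6, -6.83, -5.92 and -8.88 points in the same order. T cells, which should lack the receptors, gave a measure of free RNA. At 1500 UMIs 0.997% and 0.473% of mutant T cells held an Lrp2 UMI, against 0.809% and 4.85% of wild-type T cells, at median depths of 3592 and 5050 UMIs and of 4498 and 6893 UMIs before thinning. The highest of these was in wild type 2, where 78.0% of proximal tubule cells held an Lrp2 UMI. The part of free RNA in the proximal tubule shares was not tested. Exact 95% binomial intervals, which cover counting error only, were 43.1% to 47.7% for Lrp2 in the proximal tubule cells of mutant 1 and 76.4% to 79.5% in those of wild type 2.

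The genes that act with these 5 were followed in 6 lists. Of 87 list genes tested in the proximal tubule, 0 passed in edgeR, 0 passed in DESeq2, and 3 were under an unadjusted p of 0.05 in edgeR (3.45%, against 9.52% of all 13306 genes). The median log2 fold change was 0.02 over all genes. It was 0.09 for the 17 clathrin coat and adaptor genes, 0.22 for the 17 genes of endosomes and receptor recycling, 0.17 for the 16 of endosomal acidification and 0.49 for the 17 of lysosomal degradation. Of the lysosomal genes 14 of 17 were above 0, and over all genes 6826 of 13306 were. The median was 0.06 for 11 of 13 genes of filtered ligands and their handling that were tested and -0.47 for 9 of 11 genes of the LDL receptor family, to which megalin belongs, where 2 of 9 were above 0.

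The 2 genes of each list with the smallest p were read by library. In the LDL receptor family, Lrp4 measured 15.4 and 13.8 CPM in mutants against 21.1 and 36.7 CPM in wild types (log2 fold change -0.75, edgeR adjusted p = 0.485), and Lrp5 6.05 and 7.49 CPM against 9.66 and 17.1 CPM (-0.75, 0.571). Slc9a3, the sodium-proton exchanger of brush border and endosomes, measured 50.4 and 45.3 CPM in mutants against 73.9 and 131.9 CPM in wild types (-0.86, edgeR adjusted p = 0.487). Its neighbour in the list, the chloride-proton exchanger Clcn3, measured 75.4 and 64.3 CPM against 87.3 and 158.3 CPM (-0.57). For all 4, both mutants were under both wild types, as for 23.4% of all genes tested, and wild type 2 was highest; genes chosen for a small p tend to be so. Hexa, a lysosomal hexosaminidase, was higher in both mutants, with 50.9 and 46.7 CPM in mutants against 30.4 and 26.7 CPM in wild types (0.96, edgeR adjusted p = 0.328). Both mutants were higher for 15.2% of all genes tested. Ctns, the lysosomal cystine transporter, measured 15.6 and 10.1 CPM in mutants against 14.3 and 31.2 CPM in wild types (-0.58).

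Among the ligands, Gc, the vitamin D-binding protein that megalin takes up, measured 146.8 and 155.5 CPM in mutants against 96.2 and 97.1 CPM in wild types (0.85, edgeR adjusted p = 0.558). Its transcripts were higher in both mutants, as were those of 15.2% of all genes tested. Those of Vdr, the vitamin D receptor, were 82.4 and 66.1 CPM against 89.8 and 154.5 CPM (-0.48, edgeR adjusted p = 0.694). Gc and Vdr are named because they had the smallest p of their list. Synj1 and Itsn1, which serve clathrin uncoating and coat assembly, were at -0.67 and -0.72. Appl2, an early endosome adaptor, was at -0.62, and Ocrl, the inositol phosphatase lost in Lowe syndrome, at -0.54. For these 4 genes mutant 2 was the lowest library and wild type 2 the highest. Without wild type 1, log2 fold changes were 1.24 for Vps29 and Ap2m1, 1.30 for Hexa, 1.26 for Ctsl and 1.17 for Atp6v1e1. They were 1.12 for Atp6v1d, 1.23 for Atp6v0c and -1.04 for Slc9a3. These list genes were picked by that fit itself, which leaves 1 wild-type library, so they are no result about the lists. Vps29 is a retromer subunit, Ap2m1 the cargo subunit of the plasma membrane clathrin adaptor, Ctsl a lysosomal protease and the 3 Atp6v genes subunits of the proton pump.

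Within the proximal tubule the 5 genes did not go together. The 9 clusters fell into 4 kinds, set by thresholds chosen after seeing the data, and differences between them are descriptions with no test. Nuclear RNA-rich clusters had over 1.5% of their UMIs in Malat1. The shallow cluster had a median under 1500 UMIs, mitochondria-poor clusters had a median of under 5% mitochondrial UMIs, and the rest are called mitochondria-rich. Mitochondria-rich cells were 27.2% and 60.3% of mutant proximal tubule cells and 47.8% and 40.4% of wild-type ones. Nuclear RNA-rich cells were 20.0% and 6.89% in mutants and 19.0% and 25.7% in wild types. Mitochondria-poor cells were 21.5% and 12.6% in mutants and 23.4% and 12.9% in wild types, and shallow cells 31.2% and 20.2% in mutants and 9.76% and 20.9% in wild types. Mutant 2 held few nuclear RNA-rich cells and mutant 1 many shallow ones, so the makeup of the class differed between libraries of 1 group.

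In the mitochondria-poor clusters the transcripts of both receptors, the anchor and the chaperone were low, and those of Dab2 were high. Lrp2 was at 0.0881 and 0.160 of its mitochondria-rich level in mutants and at 0.0857 and 0.254 in wild types. Cubn was at 0.0913 and 0.197 in mutants and 0.0924 and 0.264 in wild types. Amn was at 0.0989 and 0.107 in mutants and 0.115 and 0.156 in wild types, and Lrpap1 at 0.108 and 0.142 in mutants and 0.0956 and 0.136 in wild types. Dab2 was at 2.01 and 2.28 times its mitochondria-rich level in mutants and at 2.07 and 2.26 times in wild types. The ratio was below 0.5 in each library for 4 of 5 members. It was so in each library for 516 of the 4167 genes with at least 30 CPM in either kind. By CPM averaged over the libraries, 14.9% of these genes were below 0.5. The median ratio over genes was between 1.38 and 1.61 in the libraries. The shallow cluster was alike. Its ratios were 0.0437 to 0.275 for Lrp2, Cubn, Amn and Lrpap1 over the 4 libraries and 1.82 to 2.65 for Dab2. The lowest, that of Amn in wild type 1, rests on 4 UMIs.

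The 6 lists differed in how many of their genes were low. Of the clathrin coat and adaptor genes with enough counts, 0 of 13 had a ratio below 0.5 (median 1.61), and of those of endosomes and receptor recycling 0 of 12 (median 1.80), beside a median of 1.54 over all 4167 genes. Of the lysosomal degradation genes 11 of 13 were below 0.5 in every library (median 0.180). Ctsl and Ctsb, lysosomal proteases, were at 0.108 and 0.119, and Lamp2, a lysosomal membrane protein, at 0.138, while Rab7, a cytosolic GTPase of the same list, was at 2.03. Of the endosomal acidification genes 6 of 13 were below 0.5. The proton pump accessory proteins Atp6ap1 and Atp6ap2, the chloride-proton exchangers Clcn3, Clcn4 and Clcn5 and the membrane ring subunit Atp6v0c lay between 0.0999 and 0.364, and the subunits of the cytosolic sector, Atp6v1a, Atp6v1b2, Atp6v1c1, Atp6v1d, Atp6v1e1 and Atp6v1h, between 1.37 and 2.30. Atp6v0d1, a subunit of the membrane sector, was at 1.49.

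Of the ligand genes 6 of 8 were below 0.5. Tcn2, the secreted vitamin B12 carrier that megalin takes up, was at 0.0991, and Folr1, the folate receptor, at 0.234, whereas the nuclear receptor Vdr was at 1.67 and the mitochondrial enzyme Cyp24a1 at 2.10. In the LDL receptor family Lrp10 was at 0.160, Vldlr at 0.208 and Lrp6 at 0.534. Myo6, a cytosolic motor that binds Dab2, was lowest of its list at 0.551, and Npc2, a soluble lysosomal protein, was at 0.654. The state of these cells was not tested.

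**Figure D3:**
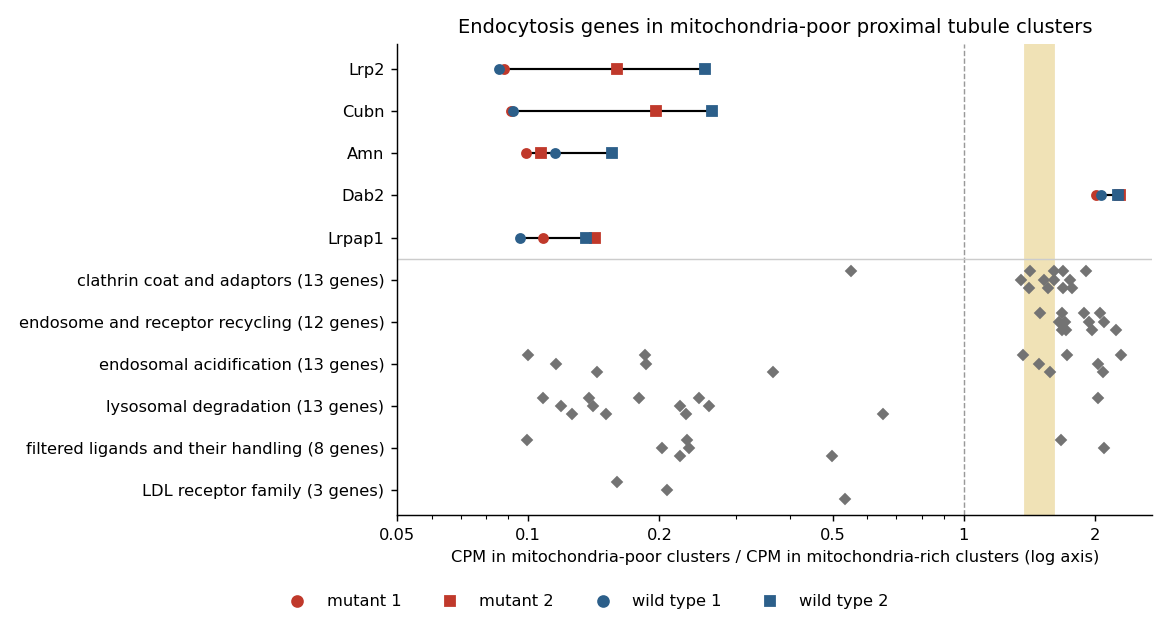
The horizontal log axis is CPM in mitochondria-poor over mitochondria-rich proximal tubule clusters. Coloured points are the 5 genes in each library, and grey diamonds are list genes, from CPM averaged over the libraries. The shaded band is the range over libraries of the median gene (1.38 to 1.61). Lrp2, Cubn, Amn and Lrpap1 lie between 0.0857 and 0.264 and Dab2 between 2.01 and 2.28.

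In the nuclear RNA-rich clusters Dab2 and Cubn were above the median gene and Amn and Lrpap1 below it. Dab2 was 5.51 and 8.37 times its mitochondria-rich level in mutants and 8.45 and 8.03 times in wild types. Cubn was 2.85 and 3.17 times in mutants and 3.75 and 2.79 times in wild types, and Lrp2 was 1.97 and 2.16 times in mutants and 2.41 and 1.22 times in wild types. Amn, at 0.539 to 0.721, and Lrpap1, at 0.508 to 0.761, were lower there in 4 of 4 libraries. The ratio was over 1 for 3 of 5 members, close to the 63.6% of 5702 genes, and the median gene was at 1.43 to 1.89, above Lrp2 in wild type 2. The 3 genes with a ratio over 1 span 141 to 215 kb and the others 5.33 and 14.3 kb; the part of gene length was not tested, and whether intronic reads were counted was not given in the sources used here.

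In mitochondria-rich clusters the libraries were closer for Dab2 and Lrpap1 than for the receptors. There Lrp2 measured 880 and 812 CPM in mutants, against 792 and 1899 CPM in wild types, and Cubn 155 and 199 CPM against 189 and 366 CPM. Wild type 2 was highest and the other 3 libraries were near each other. Dab2 measured 365 and 326 CPM in mutants against 362 and 428 CPM in wild types there, and Lrpap1 450 and 537 CPM against 498 and 457 CPM. In nuclear RNA-rich clusters Lrp2 measured 1736 and 1759 CPM in mutants against 1907 and 2314 CPM in wild types, Cubn 443 and 629 CPM against 709 and 1022 CPM, and Dab2 2013 and 2728 CPM against 3064 and 3440 CPM. In that kind both mutants were under both wild types for these 3 genes, as for 21.5% of the 12329 genes tested there, with 86 cells in mutant 2. In mitochondria-poor clusters Lrp2 measured 77.4 and 130 CPM in mutants against 67.9 and 482 CPM in wild types. The log2 fold changes of Lrp2 were -0.66, -0.21, -1.31 and -1.54 in mitochondria-rich, nuclear RNA-rich, mitochondria-poor and shallow clusters, and those of Cubn were -0.64, -0.63, -1.11 and -1.44.

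**Figure D4:**
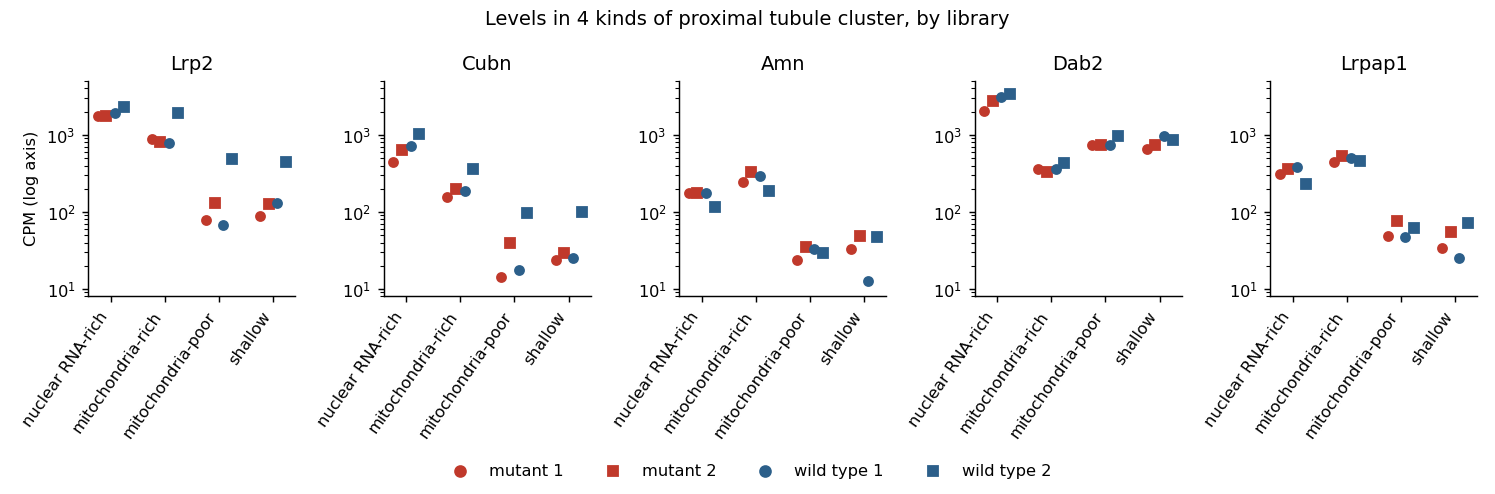
CPM on a log axis in the 4 kinds of proximal tubule cluster, 1 point per library, mutants left of wild types. Lrp2, Cubn, Amn and Lrpap1 are low in the mitochondria-poor and shallow clusters, where Dab2 stays at 664 to 969 CPM, and wild type 2 is the highest library for Lrp2 and Cubn in each kind.

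Along the tubule, among the mitochondria-rich clusters, 1 had the highest sum of markers of the last segment (S3) and another of the first (S1). The S3 markers summed to 1877 CPM in the S3-marked cluster and to 14.7 CPM in the S1-marked one. Of these markers Slc7a13 was low in the S3-marked cluster, at 9.95 and 3.22 CPM in mutants and 4.74 and 0 CPM in wild types. Wild type 1 had 58 cells in that cluster, with 21 Dab2 UMIs. Lrpap1 measured 730 and 995 CPM in the S3-marked cluster in mutants and 906 and 710 CPM in wild types, 1.97 and 2.20 times the S1-marked cluster in mutants and 2.00 and 2.16 times in wild types. Dab2 was lower in the S3-marked cluster in 4 of 4 libraries, at 0.425 and 0.241 of the S1-marked level in mutants and 0.203 and 0.319 in wild types. Amn was also lower there in 4 of 4, at 0.507 to 0.622. The anchor and adaptor were thus higher in the S1-marked cluster and the chaperone in the S3-marked one. Lrp2 was higher in the S3-marked cluster in 3 of 4 libraries and Cubn in 1 of 4. These are clusters of the same cells in which the genes were read, so the differences are given with no test.

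Levels outside the proximal tubule are given for 11 classes. Plasma cells and neutrophils, with 21 and 6 cells in their smallest library, are left out; in neutrophils Lrp2 reached 8.42% (mutant 2) and Amn 26.3% (wild type 2) of the proximal tubule level. In the 11 classes Lrp2 was at most 8.22%, Cubn at most 9.99% and Amn at most 10.7% of its proximal tubule level in the same library, and Dab2 and Lrpap1 were higher than that in several cell types. Free RNA was not corrected; Lrp2 was higher in the thick ascending limb and in principal cells than in T cells in all 4 libraries. Averaged over the 4 libraries, Lrp2 measured 1174 CPM in the proximal tubule and 53.7 CPM in the next class, the thick ascending limb. The other 10 classes lay between 8.24 CPM (dendritic cells) and 36.3 CPM (intercalated cells), and their libraries overlapped. Cubn measured 372 CPM in the proximal tubule, then 20.5 CPM in intercalated cells and 15.3 CPM in the thick ascending limb, and between 2.98 and 6.73 CPM in the others. Amn measured 172 CPM in the proximal tubule and at most 9.14 CPM elsewhere (intercalated cells). For these 3 genes each library of the proximal tubule was above each library of every other class, and the neighbours lower in the order did not differ beyond their spread.

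Dab2 averaged 1399 CPM in the proximal tubule, 354 CPM in macrophages, 313 CPM in intercalated cells, 156 CPM in dendritic cells and 142 CPM in endothelium, and between 19.7 CPM (T cells) and 59.0 CPM (thick ascending limb) in the others. In macrophages it measured 274 and 351 CPM in mutants against 313 and 476 CPM in wild types. In intercalated cells it measured 317 and 322 CPM in mutants against 250 and 363 CPM in wild types. Macrophages and intercalated cells overlapped in the order, and both were above dendritic cells, at 162 and 154 CPM in mutants and 139 and 170 CPM in wild types, in all 4 libraries. Lrpap1 averaged 316 CPM in the proximal tubule, 134 CPM in endothelium, 85.1 CPM in principal cells and between 37.8 and 71.8 CPM in the 9 other classes. In endothelium it measured 136 and 142 CPM in mutants against 142 and 116 CPM in wild types, above principal cells in each library, and below those the classes overlapped.

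**Figure D5:**
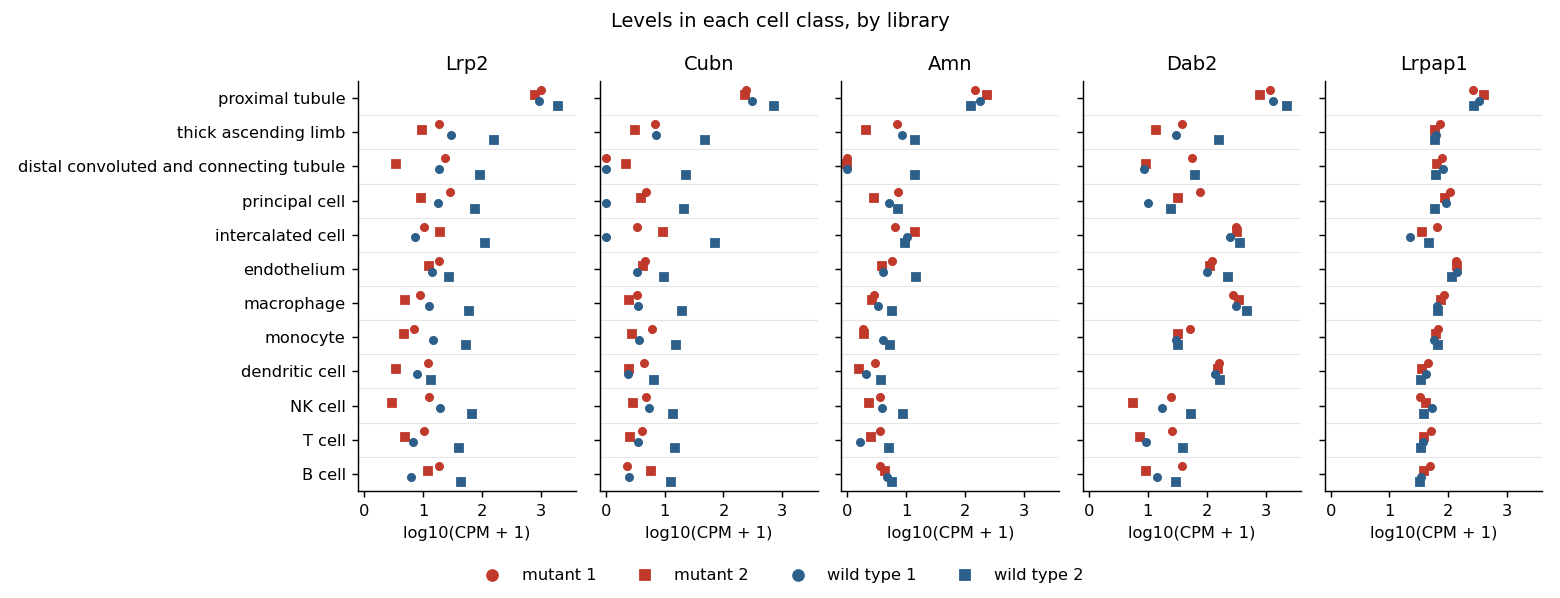
Each panel gives log10(CPM + 1) of one gene in 12 cell classes, 1 point per library, mutants above wild types within a class. Lrp2, Cubn and Amn stand out in the proximal tubule, Dab2 also in macrophages (354 CPM), intercalated cells (313 CPM), dendritic cells and endothelium, and Lrpap1 is spread over all classes.

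As a share of its proximal tubule level in the same library, Lrp2 in T cells was 0.923% and 0.496% in mutants and 0.601% and 2.07% in wild types. In macrophages the share was 0.779% and 0.488% in mutants and 1.24% and 3.06% in wild types. Wild type 2 was highest in both, and its proximal tubule cells made up 59.8% of its cells, against 27.9% and 14.0% in the mutants and 29.8% in wild type 1. The part of that share of cells in these Lrp2 values was not tested. Dab2 in T cells was at 2.14% and 0.778% of its proximal tubule level in mutants and 0.635% and 1.71% in wild types. In macrophages that share was 23.2% and 43.2% in mutants and 23.6% and 21.0% in wild types, far above the T cells of each library. Lrpap1 in T cells was at 18.4% and 9.33% in mutants and 10.9% and 12.4% in wild types.

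Between mutant and wild type, 0 members passed in any of the 8 other classes tested with edgeR or with DESeq2. Of 29 values that could be fitted with edgeR, 6 were under an unadjusted p of 0.05, and of 40 with DESeq2, 8 were. Among all genes, edgeR put 1530 of 8429 under that p in the thick ascending limb and 1951 of 11028 in principal cells. The count was 633 of 12497 in macrophages, 393 of 8689 in NK cells, 269 of 9187 in monocytes and 369 of 9819 in B cells. It was 441 of 11885 in T cells and 218 of 5347 in the distal convoluted and connecting tubule. With DESeq2 it was highest in principal cells, at 1223 of 19151. Over all genes edgeR called 0% in B cells, NK cells, T cells and the distal convoluted and connecting tubule, 0.0160% in macrophages, 0.0327% in monocytes, 0.0272% in principal cells and 0.249% in the thick ascending limb. Of the 6 values, 4 were of Lrp2 and all were lower in mutants. Lrp2 in the thick ascending limb measured 17.9 and 8.48 CPM in mutants against 28.6 and 160 CPM in wild types (log2 fold change -2.70, edgeR adjusted p = 0.121). It was at -2.55 in monocytes, -2.54 in NK cells and -1.67 in macrophages. In each of these classes both mutants were under both wild types, as for 33.3% of genes tested in the thick ascending limb, 27.1% in monocytes, 28.2% in NK cells and 34.0% in macrophages. Wild type 2 was far above the rest in all 4, and the level was at most 8.22% of that in the proximal tubule of the same library. The proximal tubule's share of cells was also highest in wild type 2, and its part in these values was not tested. Without wild type 2 the 4 values were -1.06 in the thick ascending limb, -1.46 in monocytes, -1.59 in NK cells and -0.73 in macrophages, and none passed. Without wild type 1 all 4 passed in edgeR, at -3.34, -3.33, -3.37 and -2.64 in the same order, in fits that called 9.28%, 1.00%, 3.62% and 2.54% of all genes. Without mutant 1 those of monocytes (-2.86) and NK cells (-4.14) passed, in fits that called 0.309% and 0.0917%.

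The other 2 values were of Dab2. In the thick ascending limb it measured 37.0 and 12.7 CPM in mutants against 28.6 and 158 CPM in wild types (-1.78, edgeR adjusted p = 0.195), and mutant 1 lay between the wild types. It was -0.16 without wild type 2, and -2.42 and past the threshold without wild type 1. In the mixed cluster called principal cells it measured 77.3 and 32.0 CPM in mutants against 9.03 and 23.8 CPM in wild types (1.94, 95% interval 0.56 to 3.33, edgeR adjusted p = 0.221). Both mutants were above both wild types there, as for 20.4% of the genes tested, from 61 cells in the smallest library. The value passed without mutant 2 (2.48, edgeR adjusted p = 0.0296, in a fit that called 1.58% of all genes) and was 1.10 without mutant 1, 1.39 without wild type 1 and 2.74 without wild type 2. Lrpap1 was higher in both mutants in macrophages, as were 12.3% of the genes tested, at 82.7 and 74.4 CPM against 63.6 and 66.7 CPM in wild types (0.62, edgeR adjusted p = 0.726), and in T cells, at 49.3 and 37.2 CPM against 36.0 and 33.4 CPM (0.52, 0.758), as were 11.6% of the genes tested. Dab2 in macrophages was at 0.06 (95% interval -0.85 to 0.97, edgeR adjusted p = 0.974).

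Whether the difference between mutant and wild type was itself different in the proximal tubule was tested as an interaction of genotype and class with the library as a block. Of 40 interactions, 0 passed in edgeR and 0 in limma, and 9 were under an unadjusted p of 0.05 in edgeR. How many of all genes were under that unadjusted p was not counted. The background of calls over all genes was 0.230% against B cells, 0.207% against NK cells, 0% against T cells, 0.211% against the distal convoluted and connecting tubule, 0.777% against macrophages, 0.535% against monocytes, 0.0358% against principal cells and 0.495% against the thick ascending limb. The smallest adjusted p was that of Lrp2 against monocytes, where the difference, proximal tubule minus monocyte, was 1.93 (SE 0.66, edgeR adjusted p = 0.214). That of Dab2 against principal cells was -2.54 (SE 0.62, edgeR adjusted p = 0.223). A difference between classes was therefore not shown for any of the 5 genes.

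The genes with the most similar pattern over 50 sums of a library and a class were found by Pearson's r of log2(CPM + 1) among 4627 genes with at least 30 CPM in the proximal tubule. Points that share a library share its depth and free RNA, so r is a description. Nearest to Lrp2 were the bicarbonate transporter Slc4a4 (r = 0.951), the phosphate transporter Slc34a1, Nox4, Cyp2j5 and Slc47a1 (r = 0.934). Nearest to Cubn were Abcc2 (r = 0.918), Slc22a2, Rdh16, the glucose transporter Slc2a2 and Gm42397. Nearest to Amn were Nat8f1 (r = 0.928), Slc34a1, the organic anion transporter Slc22a8, the gluconeogenic enzyme G6pc and Spink1. Slc34a1 was thus among the 5 nearest of both Lrp2 and Amn. Dab2 and Lrpap1 had looser neighbours: Cryzl2 (r = 0.769), Gatm, 4931406C07Rik, Aspa and Renbp for Dab2, and, among others, Igfbp4 (r = 0.841), Etv1, Mtmr11 and Fhl1 for Lrpap1.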

How the data were processed

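The authors deposited raw UMI counts for each gene and barcode. Per the file headers they used Cell Ranger 7.0.0 on mutant and 7.1.0 on wild-type libraries, so that version and group cannot be told apart. The mm10 build is per the submitters' processing notes; the annotation was not given in the sources used here. Libraries held 65565948 and 70013861 UMIs in mutants and 42121175 and 59946996 in wild types. Barcodes were kept from 200 genes and 500 UMIs upward, up to 50% mitochondrial UMIs, and 239, 155, 97 and 122 doublets called by Scrublet (in the library order mutant 1, mutant 2, wild type 1, wild type 2) were removed. Cells were clustered in scanpy 1.11.5 with leidenalg 0.10.2 (2000 variable genes without the 5 genes, 30 components, resolution 1), giving 34 clusters. A cluster took the class whose markers stood highest over other clusters, given at least 3 markers each in 10% of its cells; 1 stayed unnamed. Free RNA and library effects were not corrected.

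UMIs were summed per library and class. Classes with at least 50 cells in the smallest library were tested with edgeR 4.0.16 in R 4.3.3 (filterByExpr, TMM, quasi-likelihood, Benjamini-Hochberg within the class over all genes), beside DESeq2 1.42.0, and limma 3.58.1 for interactions. On counts simulated for the 13092 proximal tubule genes left by the filter, edgeR recovered 5% of 2-fold and 77% of 4-fold changes with 3 false calls. The genes and lists were chosen with earlier results of these data known. Named list genes are the 2 with the smallest p per list and those called; the others named in the comparison of cluster kinds were chosen after their values were seen. Alternatives were other scaling, no filter, other limits on cells, a replicate block, each library left out, other thinning and, chosen after seeing the data, cluster kinds left out or taken alone. Gene positions are from GENCODE M21. One gene that the naming rule selected is not reported here.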

Additional observations from a re-analysis of the deposited data

How the results depend on the processing

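Over 21 alternatives per gene, Lrp2 and Dab2 kept a negative and uncalled proximal tubule log2 fold change. Cubn stayed negative and was called in 1, without wild type 1. Each library left out in turn gave ranges of -0.68 to -0.05 (Lrp2), -1.18 to -0.37 (Cubn), 0.01 to 1.08 (Amn), -0.78 to -0.43 (Dab2) and -0.10 to 0.76 (Lrpap1, reversed without mutant 2). Taken alone, mitochondria-poor clusters put Amn at -0.07 and shallow ones Lrpap1 at -0.33. The count of called genes, 110, ranged from 0 to 1804 with a library left out (0 without wild type 2, 1804 without wild type 1), that of members from 0 to 1 and that of list genes from 0 to 8. It was 0 with library totals (which moved the median gene to -0.20), 415 with no filter, 1 with doublet calls kept, 57 without mitochondrial genes, and, chosen after seeing the data, 25, 73 and 15 without nuclear RNA-rich, shallow and mitochondria-poor clusters. In the other classes 1 of 29 member values passed with library totals and 7 of 40 with no filter. The count was 0 to 9 with a library left out, 0 of 30 values without wild type 2 and 9 of 35 without wild type 1. Over all genes, library totals called from 0 of 9819 in B cells to 28 of 12497 in macrophages. With no filter the calls went from 0 of 19151 in principal cells to 474 of 16898 in the thick ascending limb. Lrp2 in T cells ranged from -2.40 to 0.36 with a library left out, reversed without wild type 2, and Dab2 in macrophages to -0.33 with library totals. Share differences reversed for Amn without thinning (-5.92) and for Lrpap1 at 3000 UMIs (0.48); with a library left out they ranged from -28.3 to -3.88 (Lrp2) and -24.4 to -4.56 (Cubn), smallest without wild type 2, and from -5.41 to 11.01 (Amn), -14.9 to 0.09 (Dab2) and -9.66 to 9.48 points (Lrpap1). The cause of these changes was not tested.

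Replicate numbers share only a name: the deviations of same-numbered libraries correlated at -0.16 over 13306 genes. With the replicate block 221 genes were called, with the numbers crossed 207, and 0 members in either. The block gave -0.37 (Lrp2), -0.79 (Cubn), 0.53 (Amn), -0.62 (Dab2) and 0.34 (Lrpap1). The smallest library of 6 of the other classes tested held 51 to 97 cells. With 1 library left in a group, its spread is assumed to be that of the other group.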

Other observations

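Barcodes with over 50% mitochondrial UMIs were not used as cells: 1970 and 1388 from mutants against 1827 and 814 from wild types. Their Lrp2 level was 165 and 157 CPM in mutants, against 212 and 558 CPM in wild types, and their Cubn level 36.4 and 33.9 CPM against 46.9 and 112 CPM. For both receptor genes wild type 2 was highest. Amn measured 17.1 and 44.4 CPM in mutants against 42.6 and 51.8 CPM in wild types there, and Dab2 99.5 and 47.7 CPM against 70.2 and 171 CPM, with overlapping groups. Lrpap1 measured 27.9 and 53.2 CPM in mutants against 51.3 and 86.0 CPM in wild types. These barcodes were not sorted into classes, and the values were not tested.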
